A study of Mus musculus with 31 samples.

Results

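The interleukin and interleukin receptor genes were followed across 3 growth sites of a mouse mesothelioma. They were taken as every gene symbol that begins with Il followed directly by a digit and that reached 1 TPM, a unit of transcript abundance corrected for length and library size, in at least 5 of the 16 whole tumour libraries. Of 84 such symbols among the 54456 entries of the whole tumour table, 43 met this rule. Of these 43 members, 29 were also listed among the 12461 entries of the table of sorted cancer cells, and 14 were not. The pattern goes by name, so it includes the receptor antagonist Il1rn, the decoy Il18bp and Il4i1, an amino acid oxidase named for its induction by interleukin 4.

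The tumours were grown from AB1-mCherry, a mouse mesothelioma line that carries a red fluorescent protein and was enriched for bright cells before use. Untreated female BALB/c mice of 12 weeks bore them under the skin, in the peritoneal cavity or in the pleural cavity, and samples were taken on day 10. Whole tumours were profiled from 5 mice with subcutaneous, 5 with peritoneal and 6 with pleural growth. Sorted cancer cells, gated to lack the leukocyte antigen CD45 and to carry mCherry, gave 5 samples per site. Of 17 mouse names 14 occur in both tables, so the tables are not independent. Each library of a table carries its own mouse name, and all groups share the same single line, strain, sex, age and lack of treatment. Tumour-free tissue of the 3 sites was not analysed here.

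Genes at 1 TPM or more numbered 14148 to 14880 in whole tumours and 11557 to 12213 in sorted libraries. The mesothelial antigen gene Msln was high in every sorted library (149.9 to 316 TPM), and none of the T cell, natural killer (NK) cell or mast cell markers examined was listed in the sorted table. Ptprc, which encodes CD45, was at 12.9 and 7.48 TPM in sorted subcutaneous replicates 1 and 2 and at 0.228 to 2.05 TPM in the other 13 sorted libraries. Of the sorted peritoneal libraries, replicates 2 and 5 had the lowest mean correlation with the other sorted libraries (0.958 and 0.952), and peritoneal sorted cells had a lower mitochondrial share of TPM (2.91 to 4.49%) than subcutaneous (5.59 to 6.62%) or pleural ones (5.11 to 6.35%). Skeletal muscle markers summed to 48.9 to 934 TPM in all 5 subcutaneous whole tumours, to 113 and 504 TPM in pleural tumours 3 and 5 and to 5.49 to 10.2 TPM in the other cavity tumours. In whole tumours, fewer cells of a type and less RNA per cell cannot be told apart.

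Interleukins are secreted signals, made by leukocytes, stromal cells and some tumour cells, that act through paired receptor chains. The interleukin 1 (IL-1) family signals through MyD88, IRAK kinases and TRAF6, and is held back by a receptor antagonist and by decoy receptors. Most other members bind receptors that use JAK kinases and STAT factors, among them the chains shared by many cytokines: the common gamma chain (Il2rg) of lymphocyte growth factors and gp130 (Il6st), shared by IL-6, IL-11 and LIF. Some SOCS proteins are induced by this signalling and limit it.

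Receptor chains had the highest levels in whole tumours. Il2rg (84.2 to 140.9 TPM over the 16 libraries) and Il1rl1, which encodes ST2, the receptor of IL-33 (54.7 to 155.7 TPM), led the 43 members, followed by the interleukin 4 receptor chain Il4ra (54.5 to 94.97 TPM) and Il6st (34.7 to 76.2 TPM). Among secreted factors the alarmin Il33 was at 19.2 to 63.04 TPM, Il18bp at 9.30 to 58.2 TPM and Il1b at 5.85 to 53.4 TPM. Il10 and Il1a were near the level the rule requires, with 6 and 5 libraries at 1 TPM or more, and the summed level of all 43 members was 667 to 1035 TPM. Below the rule stood 41 symbols, 37 of which stayed under 1 TPM in every whole tumour and 6 of which were listed at 0 throughout. The 6 were Il9, Il17a, Il20, Il31, Il36rn and Il1f10. Il12rb2, Il20rb, Il4 and Il9r reached 1 TPM in 1 to 4 libraries, with highest values of 1.64, 1.25, 1.18 and 2.53 TPM.

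**Figure D1:**
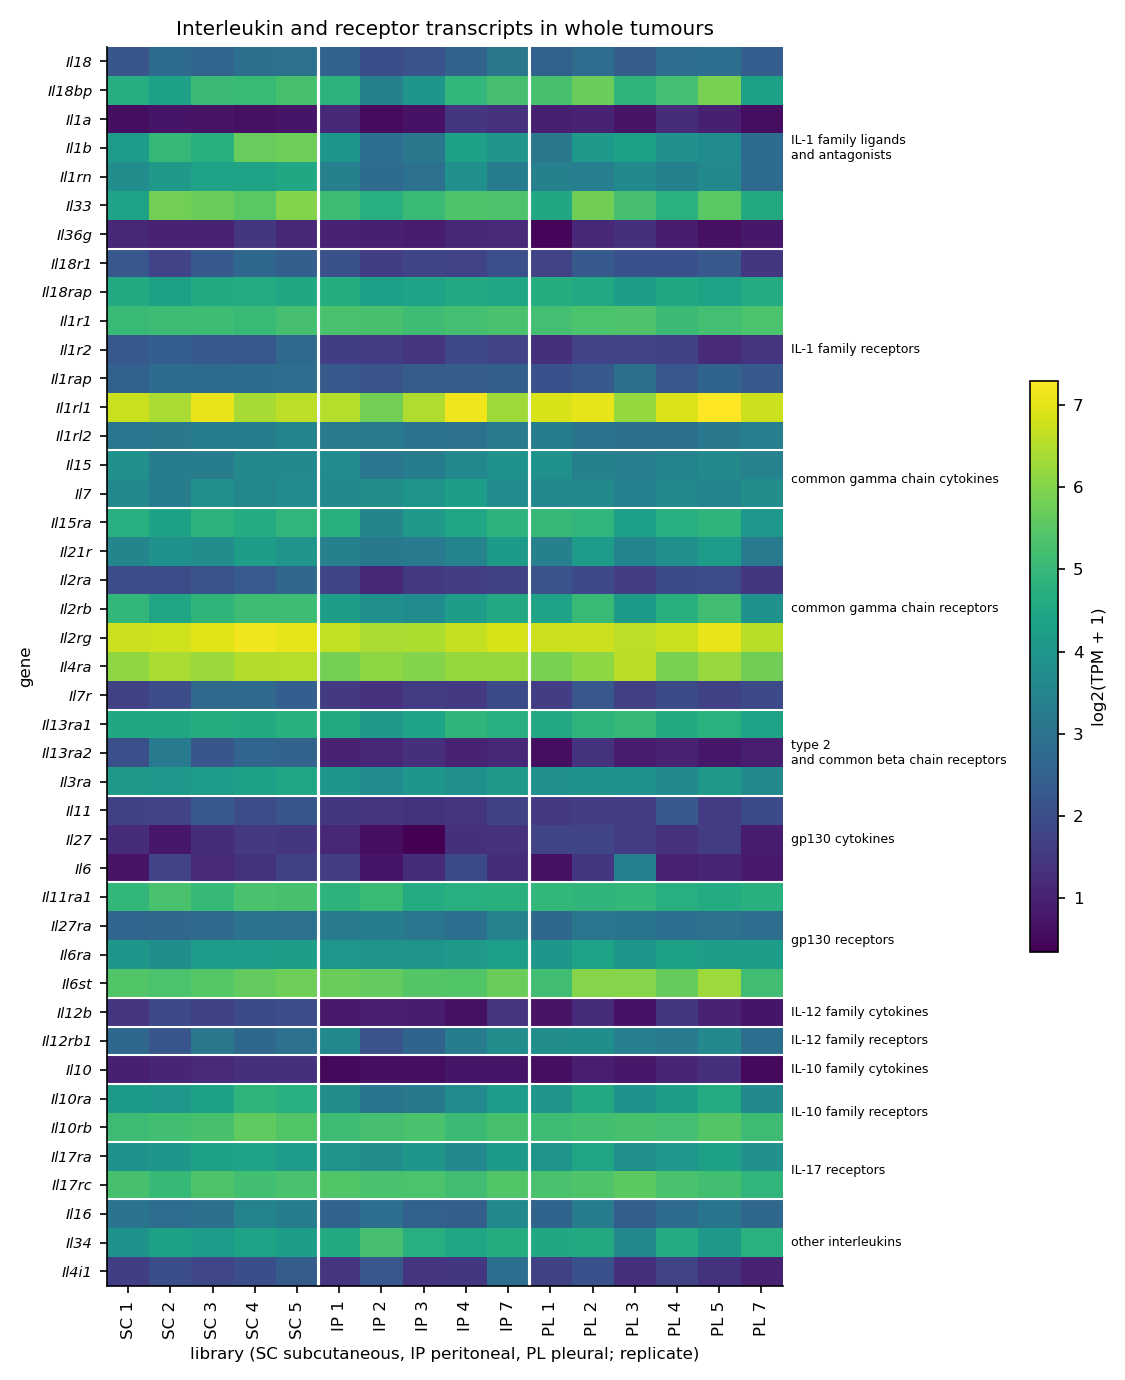
Heat map of log2(TPM + 1) for the 43 members (vertical axis, grouped by role) in the 16 whole tumour libraries (horizontal axis, by site and replicate), from dark (low) to yellow (high). Il2rg and Il1rl1 are bright in every library, while Il13ra2 and Il1r2 are brighter in all 5 subcutaneous tumours than in any peritoneal or pleural one.

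Where members differed between sites in whole tumours, they were mostly higher under the skin. In pleural against subcutaneous tumours 7 of 43 members were called (adjusted p below 0.05 by limma), all 7 lower in pleural tumours, against 12.8% of all 15054 genes tested in either direction and 3.40% called lower. In peritoneal against subcutaneous tumours 13 of 43 were called, against 12.2% of all genes. Of these, 12 were lower in peritoneal tumours (3.64% of all genes were) and 1 was higher (8.52% of all genes were). The median difference over the members was -0.16 and -0.29 on the log2(TPM + 1) scale, against 0.07 and 0.07 over all genes. Under median-of-ratios scaling the calls over all genes split into 643 higher and 912 lower for pleural tumours (1415 and 512 unscaled) and into 638 and 868 for peritoneal tumours (1283 and 548 unscaled), so the background of lower calls is itself larger there. Both comparisons share the 5 subcutaneous tumours. Il10 and Il12b met the level rule mostly through these tumours, which favours calling them lower. The same rule was applied to all genes tested. The 6 members lower in both were Il13ra2, Il1b, Il1rn, Il1r2, Il12b and Il11ra1. Of the 43 members 29 were called in no whole tumour comparison. The matching shares of all genes were not computed, so neither count can be judged against them. Cell type markers moved with the same comparisons. Of 5 general leukocyte markers 2 were lower in peritoneal tumours by limma, with sums of 697 to 1036 TPM under the skin, 451 to 874 in the peritoneum and 517 to 905 in the pleura. Of 5 skeletal muscle markers 4 were lower in pleural and 5 in peritoneal tumours, while 5 and 6 of 7 mesothelial markers and 3 of 4 plasma cell markers in each were higher. Their part in the member differences was not tested.

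**Figure D2:**
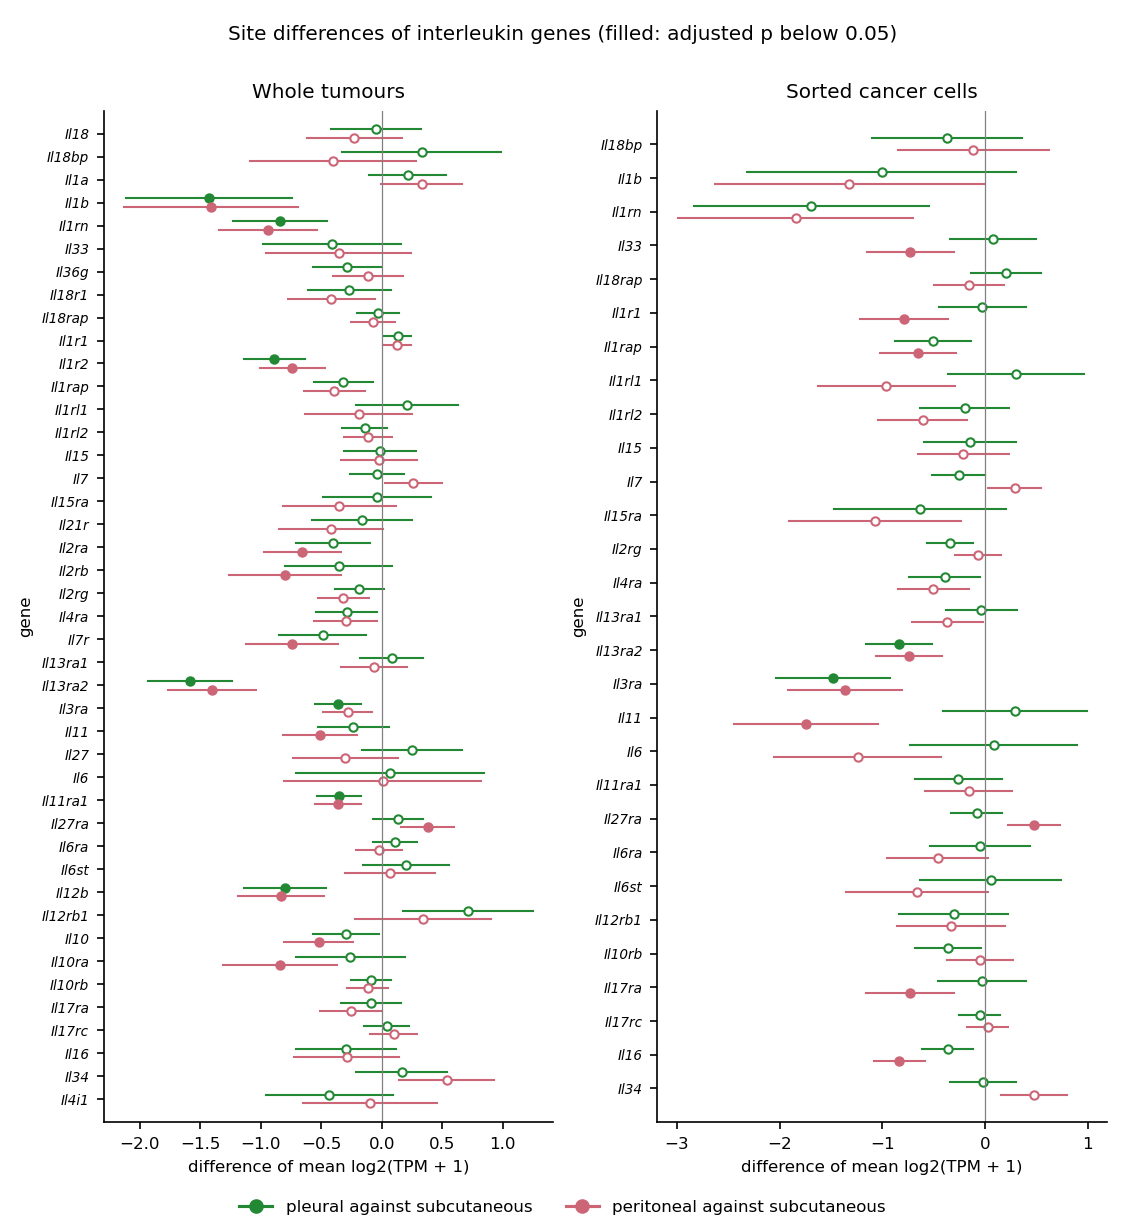
Differences of mean log2(TPM + 1) against subcutaneous samples (horizontal axis) for each member (vertical axis) in whole tumours, left, and sorted cells, right, pleural in green and peritoneal in red. Bars span 2 standard errors either way and filled points have an adjusted p below 0.05. Most filled points lie below 0, with Il27ra above 0 in peritoneal samples of both kinds.

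Promoters of 5 members are shown. Il13ra2, Il1b, Il1r2 and Il12b are those of the 6 members lower in both comparisons that have a single annotated start, and Il11 had the largest difference among members called in sorted cells. Each is the 250 bases before a start, from RefSeq on GRCm38.p6, matched by symbol only because the authors' build is GRCm39. Capitals mark matches, on either strand, to the AP-1 letters TGANTCA or the STAT letters TTCNNNGAA.
Il13ra2, chrX:147429193-147429442, minus strand: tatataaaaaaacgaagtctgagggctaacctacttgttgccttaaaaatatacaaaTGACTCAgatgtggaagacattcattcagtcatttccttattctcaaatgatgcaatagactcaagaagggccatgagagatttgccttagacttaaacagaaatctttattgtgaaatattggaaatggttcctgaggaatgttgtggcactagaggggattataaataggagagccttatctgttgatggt
Il1b, chr2:129371140-129371389, minus strand: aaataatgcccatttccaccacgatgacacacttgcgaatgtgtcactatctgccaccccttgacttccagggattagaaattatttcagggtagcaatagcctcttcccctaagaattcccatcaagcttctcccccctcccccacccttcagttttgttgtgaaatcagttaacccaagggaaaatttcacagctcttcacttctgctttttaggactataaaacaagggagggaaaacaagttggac
Il1r2, chr1:40085843-40086092, plus strand: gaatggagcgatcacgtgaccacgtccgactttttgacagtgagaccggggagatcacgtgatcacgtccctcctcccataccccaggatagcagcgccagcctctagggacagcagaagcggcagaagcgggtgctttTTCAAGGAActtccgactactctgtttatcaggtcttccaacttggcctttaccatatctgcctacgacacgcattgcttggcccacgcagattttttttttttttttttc
Il12b, chr11:44399813-44400062, plus strand: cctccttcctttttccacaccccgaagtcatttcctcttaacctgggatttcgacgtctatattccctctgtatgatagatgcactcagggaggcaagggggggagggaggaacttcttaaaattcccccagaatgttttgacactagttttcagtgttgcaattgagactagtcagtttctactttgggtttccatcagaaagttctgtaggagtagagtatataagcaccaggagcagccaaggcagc
Il11, second of 2 starts, chr7:4778142-4778391, minus strand: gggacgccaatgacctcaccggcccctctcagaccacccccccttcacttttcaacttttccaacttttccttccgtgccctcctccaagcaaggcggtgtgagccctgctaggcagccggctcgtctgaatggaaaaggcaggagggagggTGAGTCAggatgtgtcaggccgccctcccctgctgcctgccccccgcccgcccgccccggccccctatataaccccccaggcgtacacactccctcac
The AP-1 letters begin 193 bases before the Il13ra2 start and 98 before this Il11 start, and the STAT letters begin 111 bases before the Il1r2 start. Of the 43 members, 31 had an entry, with 43 windows in all. The AP-1 letters were in 7 of these 43 windows against 6.75% of 32851 windows of all genes, the STAT letters in 3 against 7.02%, and the NF-kB consensus in 2 against 0.356%. The windows of Il1b and Il12b hold none of these letters, and other forms of the sites were not searched. Such matches describe letters and do not locate a bound factor.

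Among the IL-1 family ligands and their antagonists, Il1b and Il1rn were lower at both cavity sites. Il1b, the inflammatory cytokine released after inflammasome cleavage, was at 17.1, 30.5, 25.8, 50.2 and 53.4 TPM in subcutaneous replicates 1 to 5. Peritoneal tumours (replicates 1, 2, 3, 4 and 7) had 14.8, 6.41, 7.70, 18.8 and 14.7 TPM, and the 6 pleural tumours ran from 5.85 over a median of 12.9 to 18.5 TPM. Subcutaneous replicate 1 lay below the highest cavity tumours, so the groups overlapped by that library, and the other 4 subcutaneous tumours stood above all cavity tumours. The log2 difference was -1.43 (SE 0.34, adjusted p = 0.0169, limma) for pleural and -1.41 (SE 0.36, adjusted p = 0.0212) for peritoneal tumours.

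Il1rn encodes the antagonist that occupies the IL-1 receptor without signalling. It measured 12.5, 15.7, 19.3, 19.3 and 21.3 TPM in subcutaneous tumours. Peritoneal tumours had 9.38, 5.84, 6.76, 13.6 and 8.81 TPM and pleural ones 5.88 to 11.8 TPM with a median of 9.39. All pleural tumours were below all subcutaneous ones, and peritoneal replicate 4 alone reached into the subcutaneous range. It fell by 0.84 (SE 0.19, adjusted p = 0.0139, limma) in pleural and by 0.94 (SE 0.20, adjusted p = 0.00917) in peritoneal tumours on the log2 scale. The ratio of Il1rn to Il1b had medians of 0.516, 0.722 and 0.809 in subcutaneous, peritoneal and pleural tumours, with ranges that overlapped (0.384 to 0.749, 0.598 to 0.911 and 0.560 to 1.22).

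The other 5 members of this group did not pass the test at either site. Il33, a nuclear alarmin released from damaged stromal and epithelial cells, was at 46.9 ± 16.8 TPM (mean ± SD, n = 5) in subcutaneous, 34.3 ± 6.39 (n = 5) in peritoneal and 34.5 ± 13.3 (n = 6) in pleural tumours, with subcutaneous replicate 1 at 19.2 TPM below all peritoneal values. Il18, which drives interferon gamma from NK and T cells, was at 3.01 to 7.56 TPM over the 16 libraries. Its binding protein Il18bp exceeded it throughout, with median ratios of 5.52, 4.88 and 7.35 for subcutaneous, peritoneal and pleural tumours. Il1a was low, at 0.459 to 1.71 TPM, and Il36g ran from 0.365 to 1.71 TPM.

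Some markers of the myeloid cells known to make IL-1 were lower in the same tumours. Of 7 macrophage markers 2 were called lower in pleural and 5 in peritoneal tumours, and their summed level was 2256 to 2864 TPM under the skin, 1242 to 2117 in the peritoneum and 1558 to 3188 in the pleura. Of 6 neutrophil markers listed, 5 were tested and 2 were called lower at each cavity site, with sums of 38.5 to 93.2, 28.5 to 200.005 and 24.1 to 165 TPM, and Ly6g ranged from 0 to 0.856 TPM. The median over these 5 was 0.31 in peritoneal and -0.67 in pleural tumours on the log2 scale, so most of the list lay higher, not lower, in the peritoneum. Their part in the Il1b and Il1rn differences was not tested.

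Of the 7 IL-1 family receptor genes 1 was called in whole tumours, beside 12.8% of all genes in pleural and 12.2% in peritoneal tumours. This count is near the share of all genes and is not a result about the family. The gene was the decoy Il1r2, which binds IL-1 without signalling. Its subcutaneous values were 3.79, 4.34, 3.99, 3.80 and 5.67 TPM. The peritoneal tumours had 2.13, 2.00, 1.68, 2.67 and 2.43 TPM, and the pleural tumours 1.31 to 2.36 TPM with a median of 1.92. All subcutaneous tumours were above all others. The difference was -0.89 (SE 0.13, adjusted p = 0.000795, limma) for pleural and -0.74 (SE 0.13, adjusted p = 0.00365) for peritoneal tumours. The signalling receptor Il1r1 was close to level (33.7 ± 1.83, 36.9 ± 1.94 and 37.1 ± 2.75 TPM in subcutaneous, peritoneal and pleural tumours) and was not called, and the ratio of Il1r2 to Il1r1 was 0.117 to 0.155 under the skin, 0.0496 to 0.0739 in the peritoneum and 0.0365 to 0.0672 in the pleura. The accessory chain Il1rap had an adjusted p of 0.0937 for pleural and 0.0566 for peritoneal tumours (log2 differences -0.32 and -0.39, limma).

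Il1rl1 did not differ beyond its spread in whole tumours: it was at 100.2 ± 20.1 TPM under the skin, 90.3 ± 31.3 in the peritoneum and 117 ± 27.3 in the pleura. The receptor genes of this family other than Il1rap lie next to each other on chromosome 1 in the RefSeq order Il1r2, Il1r1, Il1rl2, Il1rl1, Il18r1 and Il18rap, with 0 protein-coding genes between them. Among these neighbours the site difference was found for Il1r2 alone, and the test does not show that the other 5 were equal between sites. Il18rap, the accessory chain of the IL-18 receptor, was at 17.8 to 23.9 TPM, above its partner Il18r1 at 1.77 to 5.30 TPM.

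Some lymphocyte receptor chains were lower in peritoneal tumours. Of 7 common gamma chain receptor genes 3 were called lower there (Il2ra, Il2rb and Il7r), beside 3.64% of all genes. In pleural tumours 0 of the 7 were called, beside 3.40% of all genes called lower. There 2 of the 3 had an adjusted p of 0.0864 (Il2ra) and 0.0817 (Il7r) by limma. Il2ra, the high-affinity IL-2 receptor chain of regulatory and activated T cells, was at 2.96, 2.93, 3.47, 4.10 and 5.24 TPM under the skin and at 2.45, 1.23, 1.90, 2.07 and 2.31 TPM in the peritoneum. No values of these 2 groups overlapped (log2 difference -0.66, SE 0.16, adjusted p = 0.017, limma). Pleural tumours, at 1.73 to 3.35 TPM, lay across both.

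Il2rb, the chain shared by the IL-2 and IL-15 receptors and abundant on NK cells, measured 29.6, 20.4, 28.7, 34.4 and 34.3 TPM in subcutaneous tumours. Peritoneal tumours had 17.7, 13.2, 12.3, 17.5 and 22.3 TPM, and only their replicate 7 exceeded the lowest subcutaneous value. It fell by 0.80 (SE 0.23, adjusted p = 0.0363, limma). Il7r, the IL-7 receptor chain of naive and memory T cells, was at 2.28, 2.99, 5.66, 5.59 and 4.34 TPM under the skin against 1.90, 1.53, 1.95, 1.86 and 2.78 TPM in the peritoneum (log2 difference -0.74, SE 0.19, adjusted p = 0.0214). Here too peritoneal replicate 7 was the one value inside the subcutaneous range. With no filter on low genes the calls of Il2rb and Il7r were lost (adjusted p = 0.0841 and 0.0522, limma).

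Among the lymphocyte markers, 4 of 5 NK cell genes were called lower in peritoneal and 3 in pleural tumours, with sums of 55.9 to 90.7 TPM under the skin, 17.8 to 42.5 in the peritoneum and 23.4 to 63.3 in the pleura. Of 7 T cell markers 0 were called in either, by limma, and 0 had an unadjusted p under 0.05. Of 3 regulatory T cell markers 1 was called lower in peritoneal tumours. The part of NK and T cells in the receptor differences was not tested. The shared chain Il2rg, at 122 ± 14.4, 97.6 ± 12.8 and 107 ± 14.4 TPM, had an adjusted p of 0.0606 in peritoneal tumours. Il4ra, Il15ra, Il21r and the ligands Il7 and Il15 were not called in whole tumours, and Il15, which sustains NK cells, was at 10.7 ± 2.06, 10.6 ± 2.53 and 10.5 ± 1.79 TPM.

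Il13ra2 had the lowest adjusted p of the members at both cavity sites. It encodes a receptor that binds IL-13 with high affinity and is known as a decoy. It was at 3.13, 8.01, 3.57, 5.08 and 4.86 TPM in subcutaneous tumours, at 1.01, 1.16, 1.44, 1.05 and 1.18 TPM in peritoneal tumours and at 0.514 to 1.59 TPM (median 0.869) in pleural tumours. Every subcutaneous tumour was above every cavity tumour. The log2 difference was -1.59 (SE 0.17, adjusted p = 5.96e-05, limma) for pleural and -1.40 (SE 0.18, adjusted p = 0.000286) for peritoneal tumours, and it understates the ratio at levels this low. Il13ra1, the signalling chain, was level (23.3 ± 2.00, 22.6 ± 4.88 and 24.9 ± 4.08 TPM). Il3ra, the IL-3 receptor chain of mast cells, basophils and myeloid cells, was lower in pleural tumours (11.5 to 16.3 TPM, median 13.4) than under the skin (15.4 to 20.7 TPM), by 0.36 on the log2 scale (adjusted p = 0.0262), with overlapping values. Of 7 mast cell markers 4 were called lower in pleural and 2 in peritoneal tumours, with sums of 81.1 to 150.3 TPM under the skin, 58.4 to 93.1 in the peritoneum and 35.5 to 63.2 in the pleura. Their part in the Il3ra difference was not tested.

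**Figure D3:**
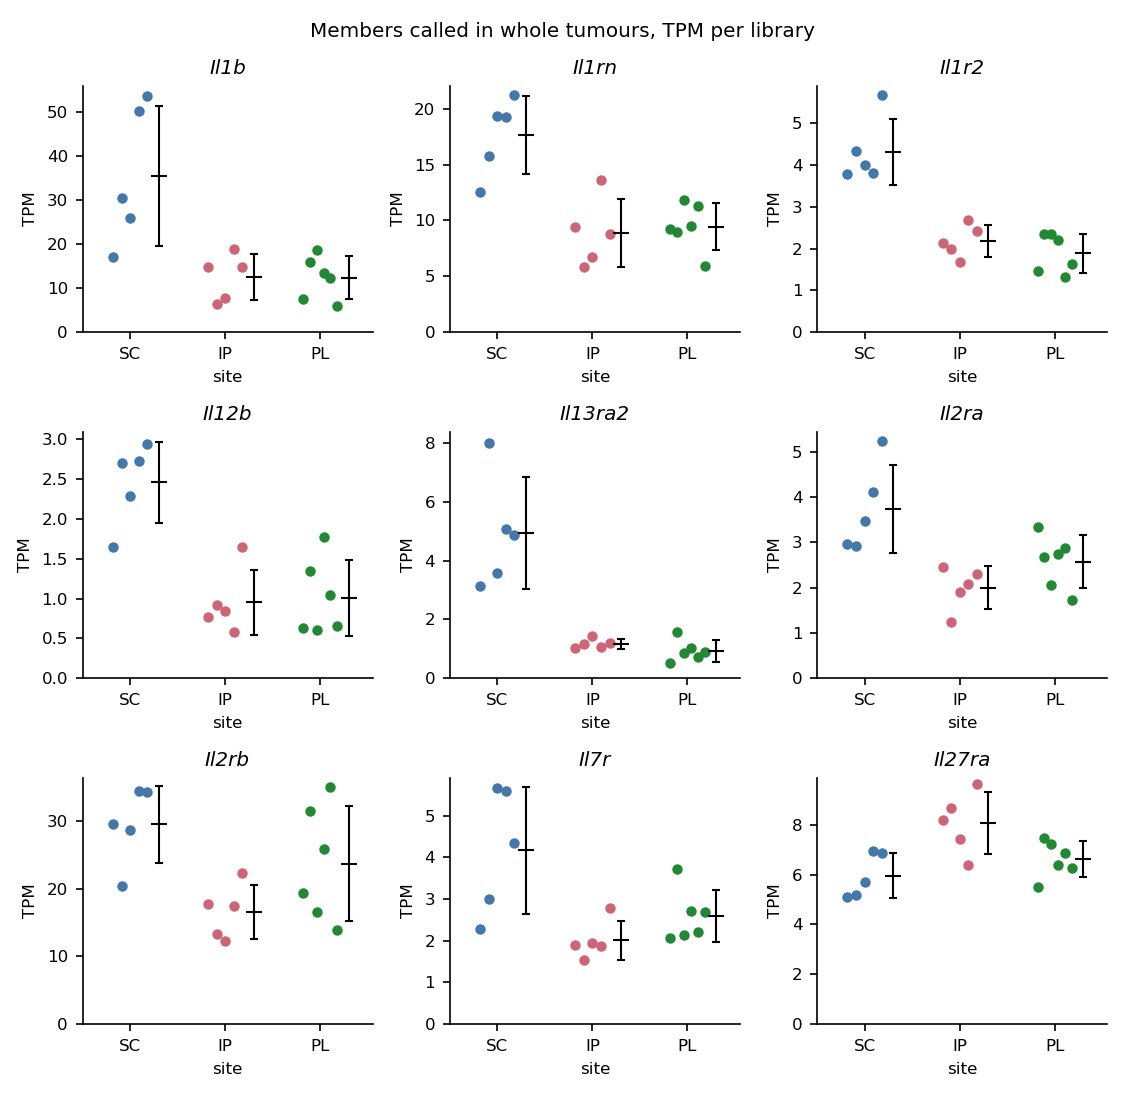
TPM (vertical axis, from 0) of 9 members in single whole tumours by site (SC subcutaneous, IP peritoneal, PL pleural); each point is 1 library and the black mark gives the mean and SD. All subcutaneous points of Il13ra2 and Il1r2 lie above all other points, and Il27ra is highest in the peritoneum, at 6.40 to 9.65 TPM.

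In the gp130 group the ligand Il11, of 3 cytokines tested, and 2 of 4 receptor chains were called in whole tumours. Of all genes 12.2% were called in peritoneal and 12.8% in pleural tumours. With so few genes these counts are not a result about the group. Il11, a cytokine of stromal and tumour cells, was at 2.20, 2.44, 3.88, 2.89 and 3.64 TPM under the skin and at 1.77, 1.69, 1.60, 1.63 and 2.24 TPM in the peritoneum, where only replicate 7 reached the subcutaneous range (log2 difference -0.51, SE 0.15, adjusted p = 0.0402, limma). Il11ra1, its receptor, was lower in both cavities by 0.36 (adjusted p = 0.0223 for pleural and 0.0252 for peritoneal tumours), from 35.0 ± 4.32 TPM under the skin to 27.1 ± 2.68 and 27.0 ± 3.21 TPM, with overlap. Reads of Il11ra1 may be shared with its near-identical copy Il11ra2, listed at a mean of 0.0449 to 0.104 TPM, so its level is uncertain. Il27ra, the receptor of the regulatory cytokine IL-27, was the one member called higher in peritoneal tumours (log2 difference 0.38, SE 0.11, adjusted p = 0.0353). Its values were 5.11, 5.18, 5.72, 6.96 and 6.85 TPM under the skin and 8.19, 8.67, 7.45, 6.40 and 9.65 TPM in the peritoneum, overlapping by peritoneal replicate 4. Il6 was low and led by pleural replicate 3 at 9.16 TPM, against 0.592 to 2.77 TPM in the other 15 tumours, and neither Il6ra (16.1 ± 1.91, 15.8 ± 1.65 and 17.4 ± 1.95 TPM in subcutaneous, peritoneal and pleural tumours) nor Il6st was called.

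Il12b, the p40 subunit of IL-12 and IL-23, was lower in both cavities. It measured 1.65, 2.70, 2.29, 2.72 and 2.94 TPM under the skin, 0.764, 0.917, 0.847, 0.580 and 1.65 TPM in the peritoneum and 0.604 to 1.78 TPM (median 0.849) in the pleura. Peritoneal replicate 7 and pleural replicate 4 overlapped with the lowest subcutaneous tumour. At 1 TPM or more were 5 subcutaneous, 1 peritoneal and 3 pleural tumours, so the subcutaneous tumours alone met the level rule. The differences were -0.80 (SE 0.17, adjusted p = 0.00951, limma) for pleural and -0.83 (SE 0.18, adjusted p = 0.009) for peritoneal tumours. Its receptor chain Il12rb1 lay the other way, at 5.78 ± 1.52 TPM under the skin and 10.1 ± 2.63 in the pleura, without passing the test (log2 difference 0.71, adjusted p = 0.0873).

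Il10 and its receptor Il10ra, an inhibitory pair of macrophages and T cells, were lower in peritoneal tumours. Il10 was at 0.923, 1.13, 1.32, 1.44 and 1.47 TPM under the skin and at 0.419, 0.552, 0.523, 0.684 and 0.677 TPM in the peritoneum, without overlap (log2 difference -0.52, SE 0.14, adjusted p = 0.0297, limma). It reached 1 TPM in 4 subcutaneous, 0 peritoneal and 2 pleural tumours. It therefore met the level rule mostly through the group where it is high, and its call is not independent of that rule. Il10ra was at 16.4, 15.6, 19.0, 28.3 and 24.9 TPM against 12.7, 7.19, 7.99, 12.0 and 17.3 TPM, overlapping by peritoneal replicate 7 (log2 difference -0.84, SE 0.24, adjusted p = 0.0326). Il10rb was not called, nor were Il16, Il34 or the IL-17 receptor chains Il17rc and Il17ra, the latter at 17.0 ± 2.36, 14.1 ± 2.07 and 15.97 ± 2.98 TPM. Il34, a ligand of the macrophage receptor CSF1R, was at 26.1 ± 6.10 TPM in the peritoneum against 17.4 ± 2.22 under the skin (adjusted p = 0.0824, limma). Only peritoneal replicate 2, at 36.5 TPM, lay above the pleural range of 10.9 to 26.4 TPM.

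Leaving out 1 library changed several peritoneal calls. The count of 13 fell to 6 or 7 without subcutaneous replicate 3 (7), 4 (6) or 5 (7) or peritoneal replicate 2 (6) or 3 (7), and the calls of Il1r2, Il13ra2, Il12b, Il1rn and Il2ra were kept in all 16 single omissions. That of Il1b was lost without subcutaneous replicate 4 (adjusted p = 0.0502, limma) or 5 (0.0532) or peritoneal replicate 2 (0.0582) or 3 (0.0512), and those of Il10, Il10ra, Il11, Il11ra1, Il27ra, Il2rb and Il7r in some omissions, with adjusted p of at most 0.0901. The pleural call of Il3ra was lost without subcutaneous replicate 4 or 5 or pleural replicate 4, and that of Il11ra1 without subcutaneous replicate 2, 4 or 5, with adjusted p up to 0.0638 and 0.0687. Between the cavity sites 0 of 43 members were called by limma, against 0.0531% of all genes, and 5 had an unadjusted p under 0.05; the alternatives run also called 0. The lowest adjusted p was 0.337, for Il7.

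In sorted cancer cells the peritoneal libraries stood apart. Compared with subcutaneous cells, 9 of 29 members were called in peritoneal cells (11.1% of 12357 genes tested were), 8 lower (6.33% of all genes) and 1 higher (4.75%), and 2 of 29 in pleural cells (1.64% of all genes), both lower (1.25%). Pleural cells compared with peritoneal ones gave 7 of 29 calls (9.96% of all genes), 5 higher in pleural cells (4.45%) and 2 lower (5.51%). The median difference over the members was -0.20 for pleural and -0.61 for peritoneal against subcutaneous cells and 0.15 for pleural against peritoneal cells, beside -0.02, -0.03 and 0.00 over all genes. Each pair of comparisons shares a group of libraries. Of the 29 members 18 were called in none, and the matching share of all genes was not computed. Over all genes, the peritoneal calls against subcutaneous cells split into 587 higher and 782 lower. The split was 1525 and 961 under quantile normalization and 841 and 1115 under median-of-ratios scaling. For pleural against subcutaneous cells the splits were 49 and 154 unscaled, 106 and 161 under quantile normalization and 65 and 166 under median-of-ratios scaling. For pleural against peritoneal cells they were 550 and 681 unscaled, 965 and 1264 under quantile normalization and 1065 and 867 under median-of-ratios scaling.

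Il11 had the largest difference of the members called in sorted cells. It was at 9.54, 7.30, 11.7, 18.5 and 18.9 TPM in subcutaneous cells, at 3.17, 2.22, 5.52, 2.25 and 2.65 TPM in peritoneal cells and at 17.3, 15.7, 10.6, 37.4 and 7.57 TPM in pleural cells. All peritoneal libraries were below all others, while subcutaneous and pleural values overlapped. It fell by 1.74 (SE 0.35, adjusted p = 0.00595, limma) in peritoneal against subcutaneous cells and was higher by 2.03 (SE 0.35, adjusted p = 0.00489) in pleural against peritoneal cells, on the log2 scale. Of its 2 RefSeq starts, the second has the AP-1 letters TGAGTCA before it, as printed above, and the first has no match to any letters searched. A part of these letters in the site difference was not tested. Both calls were kept in every alternative run, single omissions included.

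The related cytokines lay the same way. Il6 was at 3.28, 2.03, 7.44, 8.60 and 10.4 TPM in subcutaneous, 0.847, 1.27, 4.70, 1.26 and 2.05 TPM in peritoneal and 6.002, 3.66, 10.6, 9.67 and 3.00 TPM in pleural cells, and just missed the threshold (log2 differences -1.24, adjusted p = 0.0613, and 1.32 for pleural against peritoneal, adjusted p = 0.0513, limma). Peritoneal replicate 3 and subcutaneous replicate 2 made the ranges overlap. Lif, a gp130 cytokine without an Il symbol, was at 39.7 ± 19.2, 17.8 ± 9.74 and 71.2 ± 48.9 TPM and was called higher in pleural than in peritoneal cells (log2 difference 1.82, adjusted p = 0.0218). The Lif call was lost without peritoneal replicate 2 (adjusted p = 0.06) or pleural replicate 3 (0.0516) or 4 (0.0563). The receptor chains Il6st, Il6ra and Il11ra1 were not called in sorted cells.

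Of 8 genes of SOCS inhibitors, 4 were called lower in peritoneal than in subcutaneous cells (6.33% of all genes were) and 0 higher (4.75%). They were led by Socs1 (log2 difference -1.04, adjusted p = 0.0122, limma), Cish (-0.98, adjusted p = 0.0255) and Socs6 (-0.70, adjusted p = 0.0412). Whether the levels of gp130 cytokines had a part in this was not tested. The median over the 8 was -0.52, beside -0.03 over all genes. Socs1 measured 8.43 ± 2.78 TPM in subcutaneous and 3.52 ± 0.999 TPM in peritoneal cells. The count was 0 without peritoneal replicates 2 and 5 together, 1 without subcutaneous replicate 1 or 5 or peritoneal replicate 2 alone, and 2 without subcutaneous replicate 3 or peritoneal replicate 5. Of 11 JAK and STAT genes 10 were tested in sorted cells and 0 were called in any comparison (11 tested and 0 called in whole tumours), by limma, and at most 3 of them had an unadjusted p under 0.05 in any comparison.

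Of the IL-33 axis, the receptor gene Il1rl1 was high in the sorted cells. Il33 averaged 25.7 TPM there against 38.3 TPM in whole tumours, and the accessory chain Il1rap 1.36 against 4.70 TPM, without a test. Il1rl1 was the highest of the 29 members, at 211, 149, 203, 271 and 235 TPM in subcutaneous, 173, 56.2, 159, 131 and 69.7 TPM in peritoneal and 283, 209, 291, 481 and 139 TPM in pleural cells. Peritoneal replicates 2 and 5 were the lowest and pleural replicate 4 the highest. Pleural cells were higher than peritoneal ones by 1.26 (SE 0.33, adjusted p = 0.0292, limma) with overlap, and by 0.75 (adjusted p = 0.146) without peritoneal replicates 2 and 5. The membrane and soluble forms of ST2 are not separated in gene-level values.

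Il33 itself was at 32.7, 28.4, 24.7, 27.5 and 28.4 TPM in subcutaneous, 13.5, 13.7, 25.1, 18.7 and 14.7 TPM in peritoneal and 24.9, 28.3, 55.5, 23.1 and 26.1 TPM in pleural cells. Peritoneal replicate 3 alone was within the range of the other sites. It fell by 0.73 (adjusted p = 0.0379, limma) against subcutaneous cells and was higher by 0.80 (adjusted p = 0.029) in pleural against peritoneal cells. Both calls were lost without peritoneal replicates 2 and 5 (-0.58, adjusted p = 0.163, and 0.66, adjusted p = 0.125), and the first also without subcutaneous replicates 1 and 2 (-0.65, adjusted p = 0.134) and in 7 of 15 single omissions (subcutaneous replicate 1, 2, 4 or 5 or peritoneal replicate 1, 2 or 5). The receptor Il1r1 showed the same order, with 37.8, 32.1, 30.2, 22.7 and 30.2 TPM in subcutaneous, 23.3, 11.8, 20.6, 24.8 and 10.05 TPM in peritoneal and 29.1, 27.9, 34.6, 25.6 and 31.99 TPM in pleural cells. Its differences of -0.79 (adjusted p = 0.0269) and 0.76 (adjusted p = 0.0349) were -0.39 and 0.36 (adjusted p = 0.108 and 0.132) without peritoneal replicates 2 and 5. Il17ra and Il1rap were lower in peritoneal than in subcutaneous cells (log2 differences -0.73 and -0.65, adjusted p = 0.0393 and 0.033), and both calls were lost without these 2 libraries (-0.38 and -0.45, adjusted p = 0.178 and 0.179). The adaptor Traf6, which serves both receptors' pathways, was lower in peritoneal cells against subcutaneous (-0.65, adjusted p = 0.0251) and higher in pleural against peritoneal cells (0.71, adjusted p = 0.0221), and both calls were lost without peritoneal replicates 2 and 5 (adjusted p = 0.133 and 0.101).

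Il13ra2 was lower in both kinds of cavity cells, as in whole tumours. Its values were 4.62, 2.30, 2.41, 2.36 and 1.72 TPM in subcutaneous, 1.12, 1.32, 1.24, 0.966 and 1.08 TPM in peritoneal and 0.806, 0.826, 1.25, 1.11 and 1.04 TPM in pleural cells. No cavity value reached the subcutaneous range. The differences were -0.74 (SE 0.16, adjusted p = 0.00956, limma) and -0.84 (SE 0.16, adjusted p = 0.0108). Both calls were kept without subcutaneous replicates 1 and 2.

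Il3ra was at 6.32, 4.42, 3.10, 2.83 and 0.982 TPM in subcutaneous cells against 0.281 to 1.19 TPM in peritoneal and 0.231 to 1.05 TPM in pleural cells. Only subcutaneous replicate 5 was within the cavity range (log2 differences -1.36 and -1.48, adjusted p = 0.00653 and 0.00916, limma). Il3ra reached 1 TPM in 6 sorted libraries, most of them subcutaneous, so it passed the filter mainly through the group where it is high. The 2 highest values were in the libraries with the most Ptprc, and without them the pleural difference was -1.08 with an adjusted p of 0.086, while the peritoneal call was kept. Il16, the precursor of a CD4-binding chemoattractant, was lowest in peritoneal cells (0.454 to 0.912 TPM against 1.61 to 2.17 TPM in subcutaneous cells, without overlap, log2 difference -0.84, adjusted p = 0.000683) and at 0.770 to 1.51 TPM in pleural cells. It reached 1 TPM in 9 sorted libraries, all of them subcutaneous or pleural, so it passed the filter through the groups where it is higher.

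Il27ra and Il7 ran against this direction, Il7 with a call only in pleural against peritoneal cells. Il27ra was at 3.73, 3.86, 4.52, 2.93 and 3.48 TPM in subcutaneous, 6.46, 4.76, 5.73, 5.98 and 4.79 TPM in peritoneal and 4.13, 3.74, 2.72, 3.48 and 3.16 TPM in pleural cells. Every peritoneal library was above every other. It was higher by 0.48 (SE 0.13, adjusted p = 0.0237, limma) than in subcutaneous cells and lower by 0.56 (adjusted p = 0.0151) in pleural against peritoneal cells. The first call was lost without subcutaneous replicate 4 (adjusted p = 0.0563) or 5 (0.0579) and without replicates 1 and 2 together (0.0616), with log2 differences of 0.42, 0.46 and 0.50. Il7, a growth factor for lymphocytes made by stromal and epithelial cells, was at 15.8 to 22.1 TPM in peritoneal and 10.1 to 17.7 TPM in pleural cells (log2 difference -0.54, adjusted p = 0.019), and at 14.5 to 16.4 TPM in subcutaneous cells. Against subcutaneous cells the peritoneal difference of Il7 was not called (0.29, adjusted p = 0.153, limma).

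**Figure D4:**
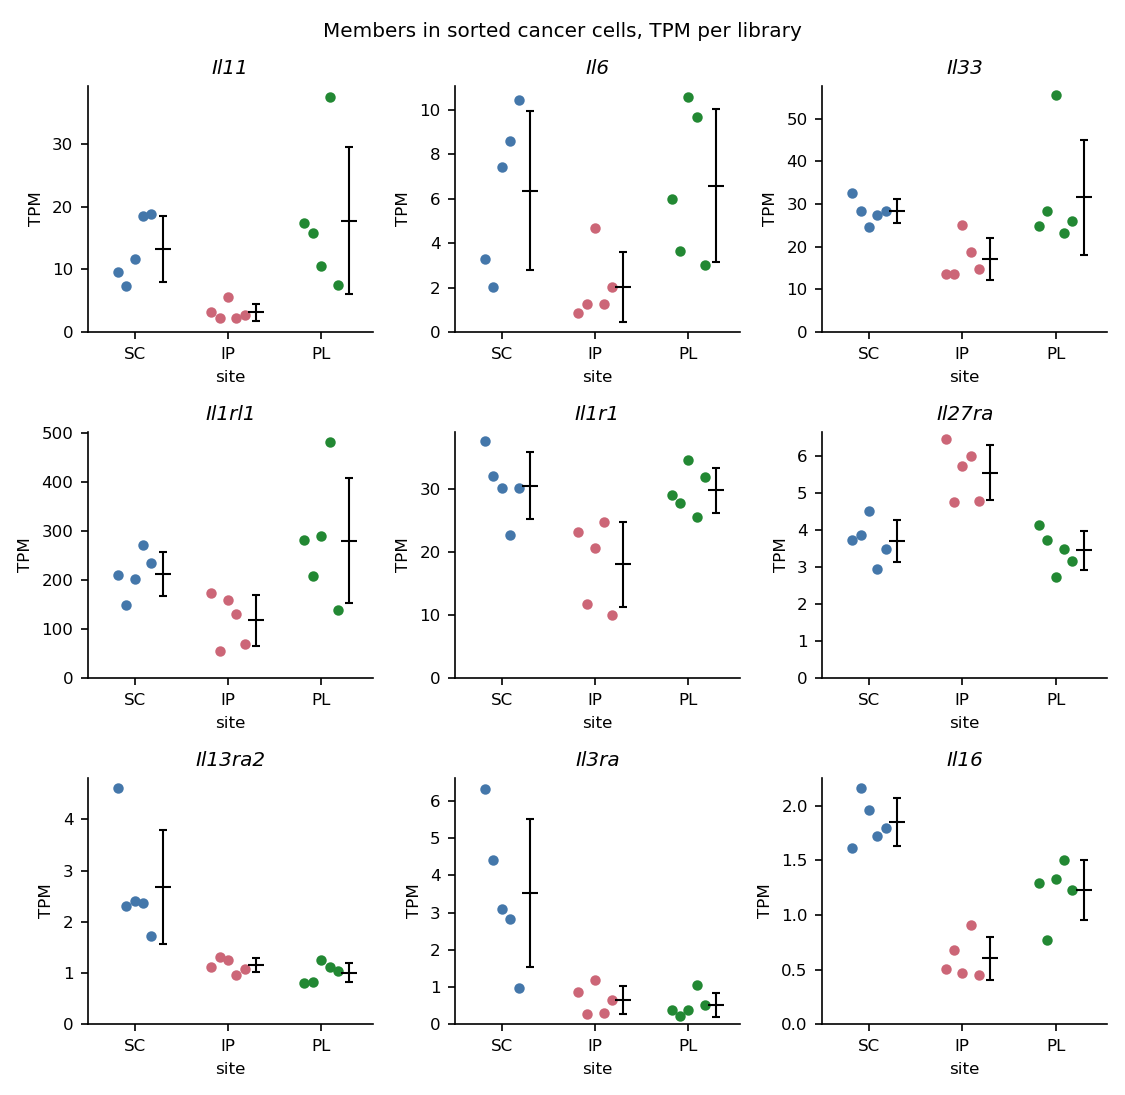
TPM (vertical axis, from 0) of 9 members in single libraries of sorted cancer cells by site (SC subcutaneous, IP peritoneal, PL pleural); each point is 1 library and the black mark gives the mean and SD. All peritoneal points lie below all others for Il11 and above all others for Il27ra, and the cavity points of Il13ra2 lie below all subcutaneous ones.

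Il1b and Il1rn were uneven in sorted cells. In subcutaneous replicates 1 to 5, Il1b was at 29.5, 12.4, 1.79, 8.57 and 1.23 TPM and Il1rn at 25.5, 12.9, 0.991, 5.99 and 1.56 TPM, highest in the 2 libraries with the most Ptprc. Peritoneal and pleural cells had 0.558 to 9.67 TPM of Il1b and 0.431 to 2.81 TPM of Il1rn. Neither was called, with adjusted p of 0.196 and 0.0503 for peritoneal and 0.657 and 0.216 for pleural against subcutaneous cells by limma. The 7 macrophage markers summed to 21.3 to 793 TPM in subcutaneous, 21.0 to 65.2 in peritoneal and 21.1 to 80.4 TPM in pleural cells, and their part in these values was not tested.

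Without sorted subcutaneous replicates 1 and 2 the peritoneal count against subcutaneous cells was 5 of 29 and the pleural count 1. Without peritoneal replicates 2 and 5 the counts were 5 against subcutaneous cells and 3 for pleural against peritoneal cells. Leaving out 1 library gave 5 peritoneal calls without subcutaneous replicate 1 or peritoneal replicate 2 or 5. The pleural against peritoneal count was 3 without peritoneal replicate 2 or 5 and 4 without pleural replicate 3 or 4. Fibroblast markers were called lower in 3 of 6 genes in both cavity groups of sorted cells, with sums of 506 to 907 TPM in subcutaneous, 306 to 517 in peritoneal and 316 to 527 in pleural cells. Of these markers Dcn was at 77.2 to 246 TPM in sorted cells and 85.0 to 263 TPM in whole tumours. Pi16 was at 0.381 to 6.53 and 7.47 to 130 TPM. Whether fibroblasts or the cancer cells carried these transcripts in the sorted libraries was not tested. Of 3 endothelial markers tested 2 were called lower in peritoneal cells by limma, with sums of 10.5 to 16.9 TPM in subcutaneous, 2.66 to 7.03 in peritoneal and 2.64 to 12.5 in pleural cells. The part of either in the member differences was not tested.

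Set side by side, the 2 tables placed members at different levels, although each has its own normalization and no test was run between them. Il11 averaged 11.4 TPM over the 15 sorted libraries and 2.41 TPM over the 16 whole tumours (a ratio of 4.72), Il6 4.99 and 1.92 TPM (2.60) and Il1rl1 204 and 103 TPM (1.97). These ratios pool sites that differ: in the peritoneum the sorted and whole tumour means were 3.16 and 1.78 TPM for Il11, 2.03 and 1.63 for Il6 and 118 and 90.3 for Il1rl1, while for Il11 they were 13.2 and 3.01 under the skin and 17.7 and 2.43 in the pleura. In all 6 of 29 members had a higher mean in sorted cells, the other 3 being Il7, Il1rl2 and Il18rap. At the other end, every sorted value was below every whole tumour value for 7 members, among them Il3ra (a ratio of 0.105), Il16 (0.182), Il10rb (0.348), Il15 (0.365) and Il4ra (0.455). Il2rg, known mainly from lymphocytes, was still at 34.8 to 66.8 TPM in sorted cells, including the 13 libraries with Ptprc of at most 2.05 TPM. Il18rap was at 12.2 to 28.6 TPM there although its partner Il18r1 was not listed. Of the 14 members called in whole tumours, 7 were not listed in sorted cells (Il12b, Il1r2, Il10, Il10ra, Il2ra, Il2rb and Il7r). Another 4 were called in both tables (Il13ra2, Il3ra, Il11 and Il27ra). The matching shares of all genes were not computed.

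**Figure D5:**
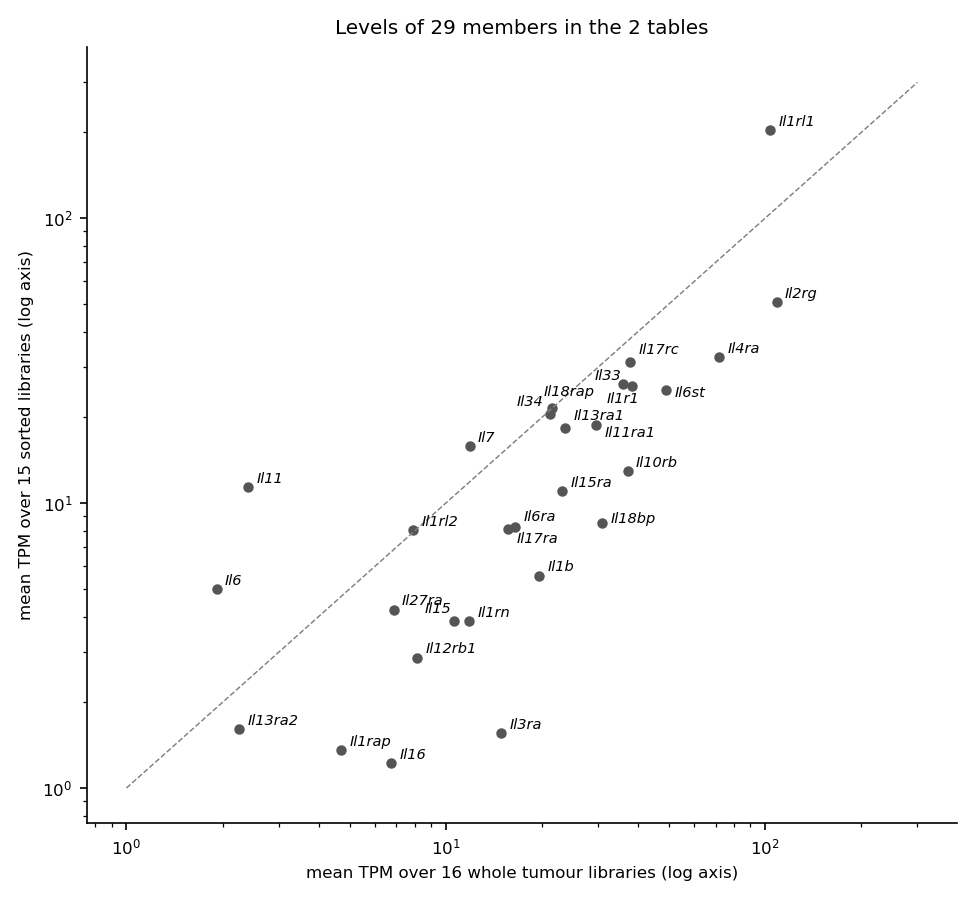
Mean TPM of each of the 29 members listed in both tables, over 16 whole tumours (horizontal log axis) and over 15 sorted libraries (vertical log axis); the dashed line marks equal values. Il11, Il6 and Il1rl1 lie above the line and Il3ra and Il16 farthest below it.

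Other genes of these pathways changed in smaller numbers. In whole tumours, of 15 tested partner chains and related cytokines without an Il symbol, Ebi3, the partner of IL-27 p28, was lower in pleural (log2 difference -0.50, adjusted p = 0.0349, limma) and peritoneal tumours (-0.73, adjusted p = 0.00762). In pleural tumours Lif was higher (0.44, adjusted p = 0.00986) and Crlf2, a chain of the TSLP receptor, lower (-0.26, adjusted p = 0.0318). Of 13 signalling adaptors Irak1 was higher in pleural tumours (0.21, adjusted p = 0.0392, limma). In peritoneal tumours Irak4 was higher (0.20, adjusted p = 0.0492) and Irak3, an inhibitory kinase relative, lower (-0.69, adjusted p = 0.0215). Of all genes 12.8% were called in pleural and 12.2% in peritoneal tumours. Median-of-ratios scaling lost the calls of Irak1 (0.12, adjusted p = 0.116, limma) and Irak4 (0.13, adjusted p = 0.186), as did quantile normalization. Socs7 was higher in pleural tumours (0.26, adjusted p = 0.00761) and lost its call under quantile normalization (0.18, adjusted p = 0.0568, limma). In sorted cells Irak2 (-0.62, adjusted p = 0.0314) and the pore-forming Gsdmd (-0.50, adjusted p = 0.0154) were lower in pleural than in peritoneal cells. Of the calls named here, those of Ebi3 in peritoneal and Lif in pleural tumours were kept in every alternative, those of Socs7 and Gsdmd in every omission of 1 library, and the others were lost in at least 4 such omissions.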

How the data were processed

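Gene expression was analysed in 16 whole tumours and 15 samples of sorted cells. The authors deposited TPM values per gene, quantified with kallisto on GRCm39 per the submitters' processing notes; neither its version nor an annotation, gene-level summing or filter is given in the sources used here. Every entry of the sorted table averaged at least 1 TPM, and its 17 entries named as dates (0.0684 to 0.105% of TPM) were left out. TPM keeps no depth, so depth per library is unknown. Replicate numbers are those of the mouse names in the labels; for peritoneal whole tumours 2, 3 and 4 the library names carry 3, 4 and 5.

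Values were taken as log2(TPM + 1), which understates changes of low genes, and fitted with limma 3.58.1 in R 4.3.3 (intensity trend, 3 sites of a table in 1 fit, each table apart). Genes at 1 TPM in at least 5 libraries were tested, with Benjamini-Hochberg adjustment over all of them, and adjusted p below 0.05 was a call. The members and lists were chosen with earlier results of these data known. Members called in at least 1 of 6 comparisons and 28 listed interleukin genes were named with values, and of the other pathway lists up to 3 called genes per list and comparison. The fit was tested on simulated data. Alternatives were a pseudocount of 0.1, a filter of 5 TPM or none, quantile normalization, median-of-ratios scaling, a fit of 2 sites, robust empirical Bayes, array weights, a replicate block, a threshold of 0.01 and omission of each library; 3 omissions of library pairs were added after seeing the data. The p-values measure spread between mice. One result from the lists of other pathway genes is not reported here.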

Additional observations from a re-analysis of the deposited data

Results flagged for a closer look

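In 14 of 216 groups of 5 or 6 libraries, 1 library lay apart from the others by Dixon's test at the 95% level, which chance does in about 1 group in 20. Sorted subcutaneous replicate 1, the library with the most Ptprc, was highest in 6 of them, with Il12rb1 at 5.94, Il13ra1 at 25.6, Il13ra2 at 4.62, Il15 at 6.35, Il18rap at 26.6 and Il1rap at 3.70 TPM. Peritoneal whole tumour 7 was highest for Il11 (2.24 TPM), Il16 (11.8 TPM) and the IL-21 receptor gene Il21r (16.6 TPM). In sorted cells Il11 was highest in peritoneal replicate 3 (5.52 TPM) and Il33 in pleural replicate 3 (55.5 TPM). In pleural whole tumours Il6 was highest in replicate 3 (9.16 TPM, the others at 0.592 to 1.78 TPM) and Il2rg in replicate 5 (133.7 TPM). Il1rap was lowest in subcutaneous whole tumour 1 (4.66 TPM, the others at 5.80 to 6.08 TPM).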

How the results depend on the processing

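Of 100 differences of single genes recomputed under the alternatives (81 of them of members, with an unadjusted p under 0.05 or a log2 difference of at least 0.5), 0 reversed; smaller differences were not recomputed. Of 20 member calls in whole tumours 7 were kept in every alternative that tested the gene and 10 in every omission of 1 library. For 18 calls in sorted cells these numbers were 5 and 9. A member that the filter of 5 TPM removed was not counted as lost there. The threshold of 0.01 is among the alternatives, so it alone drops every call with an adjusted p between 0.01 and 0.05. Whole tumours, pleural against subcutaneous (7 called): 4 with the filter of 5 TPM, 11 with array weights, 3 at adjusted p below 0.01, and 5 to 9 when 1 library was left out. Peritoneal against subcutaneous (13 called): 5 without a filter, 6 with the filter of 5 TPM, 4 at adjusted p below 0.01 and 6 to 15 with 1 library left out. Sorted cells, pleural against subcutaneous (2 called): 0 with the filter of 5 TPM, 1 at adjusted p below 0.01 and 1 without subcutaneous replicates 1 and 2. Peritoneal against subcutaneous (9 called): 4 with the filter of 5 TPM, 14 with quantile normalization, 4 at adjusted p below 0.01, 5 without subcutaneous replicates 1 and 2, 5 without peritoneal replicates 2 and 5, and 5 to 13 with 1 library left out. Pleural against peritoneal (7 called): 2 when only these sites were fitted, 1 at adjusted p below 0.01, 3 without peritoneal replicates 2 and 5, and 3 to 9 with 1 library left out. The filter of 5 TPM removes low members from testing; the cause of the other shifts was not tested. Replicate numbers did not pair the samples: the deviations of same-numbered libraries had correlations of -0.38 to 0.26 (14 pairs of whole tumours) and -0.30 to 0.35 (15 pairs of sorted samples). With the number as a replicate block, 4 members were called in peritoneal against subcutaneous whole tumours. Depth is unknown, so it cannot be said which low members it limits.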
